A study of Rattus norvegicus with 10 samples.

Results

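Mucin-type glycan and fucose transferases are the Golgi enzymes that build and cap the sugar chains of mucins and other glycoproteins, and they were described here in epithelial cells of the rat distal colon after a diet with cholate. The members were all genes of the deposited table whose symbol starts with Galnt, C1galt, Gcnt, B3gnt, B3galt, B4galt, Fut, St3gal, St6gal or St6galnac followed by a digit. This gave 65 genes of 23422. The rule used names only and no measured value, but the family was chosen with earlier results of these data known. By role, 16 were initiating (Galnt), 8 core (C1galt, Gcnt and B3gnt6), 19 extending (the other B3gnt, B3galt and B4galt), 8 fucosylating (Fut) and 14 sialylating enzymes (St3gal, St6gal and St6galnac). Some act mainly on glycolipids, N-linked glycans or proteoglycans and not on mucins, and these are named as such where they are described.

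The rats were male Wistar Munich rats, and the sources used here give no age. After 3 days of acclimatization in single metabolic cages, 6 of 12 rats were switched from standard chow to this chow with sodium cholate, a salt of a primary bile acid, mixed in at 1% w/w, and the diets lasted 10 days. Cells were released from the inverted distal part of the colon with EDTA, and of each diet the 5 rats whose extracts had most RNA per volume were sequenced. The control diet group held rats 1, 2, 5, 6 and 9, and the cholate group rats 3, 4, 7, 8 and 11. The comparison asked how dietary cholate changed expression in this epithelium.

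O-linked glycosylation of a mucin starts when a Galnt enzyme attaches N-acetylgalactosamine to serine or threonine. Core enzymes then add galactose (core 1, by C1galt1 with its chaperone C1galt1c1) or N-acetylglucosamine (core 3, by B3gnt6), and Gcnt enzymes add a branch. B3gnt, B3galt and B4galt enzymes lengthen the chains, and fucose and sialic acid are added at or near the ends. Core 3 chains are typical of the colon, and the glycans of the mucin Muc2 shape the mucus layer of the gut.

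Levels are CPM, counts relative to library size after TMM scaling, which corrects for library composition. Where a mean ± SD is given, n = 5 in each diet. A log2 change compares the cholate diet with the control diet, its standard error (SE) is approximate, and its adjusted p comes from the edgeR quasi-likelihood test with Benjamini-Hochberg adjustment across all 12385 tested genes. A gene was called when the adjusted p was under 0.01 and the fold over 2. Genes with an adjusted p under 0.05 are given as a second, looser class. Total counts were lowest in cholate rat 11, at 14337356, and highest in cholate rat 4, at 45285762, and 0 counts allow up to 3 counts, or 0.228 and 0.0616 CPM in these libraries. These bounds cover counting error only. The samples are separate rats.

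Libraries differed along an axis other than diet. On the first principal component, which held 46.8% of the variance, control rat 9 and cholate rats 8 and 11 lay between 57.0 and 79.6, control rat 5 at 8.08 and the other 6 libraries between -46.4 and -26.7. Genes with a long 3′ UTR in the deposited annotation (1574 bases or more, against 297 or fewer for a short one) were low in the same libraries. Their median log2 deviation minus that of genes with short 3′ UTRs was -1.0 in cholate rat 8, -0.70 in cholate rat 11, -0.69 in control rat 9 and -0.04 in control rat 5, against 0.32 to 0.54 in the other 6. The mucin Muc2 was highest in these 4 libraries, at 5633 CPM in control rat 5, 9515 in control rat 9, 8123 in cholate rat 8 and 11074 in cholate rat 11, against 2140 to 4793 CPM in the others. Some results for the members are therefore given also among control rats 1, 2 and 6 and cholate rats 3, 4 and 7 alone. This set is called the 6 rats here and was chosen after the values were seen. Its libraries lie close together on the first principal component of the same counts, so its adjusted p and calls are given as description only. The part of RNA quality or cell composition in the results was not tested.

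**Figure D1:**
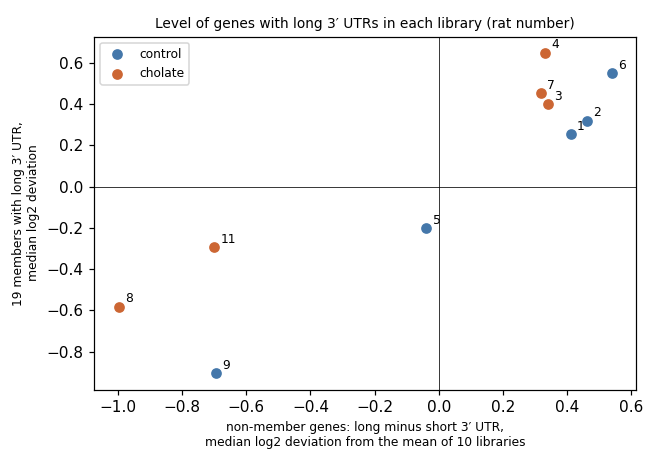
Horizontal axis, per library, the median log2 deviation from the mean of 10 libraries of non-member genes with a long 3′ UTR minus that of genes with a short one. Vertical axis, the median log2 deviation of the 19 tested members with a long 3′ UTR. Points are rats with their numbers, and control rat 9 and cholate rats 8 and 11 lie lowest on both axes.

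Of the 65 members 52 had enough reads to be tested. The other 13 were Galnt9, Galnt13, Galnt15, Galnt16, Gcnt7, B3galt1, B3gnt4, B4galt2, Fut7, Fut10, St6gal2, St6galnac3 and St6galnac5. Galnt15, St6gal2 and St6galnac5 had 0 counts in all 10 libraries, and B4galt2 had the most, with 51 counts over the controls and 43 over the cholate rats. St6galnac3 had 12 counts over the controls, at 0.410 CPM in control rat 5 and 0.0351 in control rat 1, and 0 elsewhere, where 0 counts allow up to 3 per library. Members that passed the filter do not stand for those that did not.

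Of the 52 tested members 3 were called lower on cholate and 0 were called higher. DESeq2 and the edgeR exact test each called 5 higher and 6 lower, and their shares over all genes are not given here. The core 3 enzyme B3gnt6, the sialyltransferase St3gal1 of core 1 chains and St6galnac2, which adds sialic acid to the innermost sugar of O-glycans, fell. Over all genes tested, 2.12% were called lower, 1.1% higher and 3.21% in all, and the 3 members are 5.77% of those tested. In the looser class 6 members were higher and 8 lower, 14 of 52 or 26.9%, against 6.48% higher, 7.28% lower and 13.8% in all among all genes tested. In 4 members every cholate rat lay above every control rat and in 7 every one lay below, against 6.3% and 6.8% of all genes. The median log2 change was 0.10 over the members and -0.01 over all genes, and the median size of change without sign was 0.42 and 0.32. By role, the looser class held 0 of 12 tested initiating, 2 of 7 core, 4 of 16 extending, 1 of 6 fucosylating and 7 of 11 sialylating enzymes. Among the 6 rats, 3 members were called higher (B4galt1, B4galt6 and Fut2) and 6 lower (B3gnt6, B3gnt8, St3gal1, St3gal2, St3gal6 and St6galnac2), against 2.45% and 5.48% of the 12648 genes tested there. In the looser class of that fit 14 members were higher and 13 lower, against 18.7% and 19.8% of genes. Since these are bulk samples, fewer cells of a type and less RNA per cell cannot be told apart.

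Promoters are shown for the members with an adjusted p under 0.05, no overlap between the diets and a single promoter entry. St3gal4 and St3gal5, also higher with no overlap, had several entries and are not shown, so B4galt1 is the only higher gene here. Of the 3 called genes, St3gal1 and St6galnac2 had no entry. Each runs from 250 bases before to 50 bases after the start of the gene in RefSeq (GRCr8), 5′ to 3′ on the gene's strand. Capitals mark matches on either strand to motifs searched by their letters. The TATA box was searched as TATAAA and the GC box as GGGCGG. The CCAAT box was searched by its name's letters, the E-box as CACGTG and the AP-1 site as TGANTCA, where N is any base. The inverted repeat 1 element of the bile acid receptor FXR was searched in its perfect form. B3gnt6, B3gnt8, St3gal2 and St3gal6 were lower on cholate and B4galt1 was higher.
B3gnt6 (chr1:161903305-161903604, minus strand): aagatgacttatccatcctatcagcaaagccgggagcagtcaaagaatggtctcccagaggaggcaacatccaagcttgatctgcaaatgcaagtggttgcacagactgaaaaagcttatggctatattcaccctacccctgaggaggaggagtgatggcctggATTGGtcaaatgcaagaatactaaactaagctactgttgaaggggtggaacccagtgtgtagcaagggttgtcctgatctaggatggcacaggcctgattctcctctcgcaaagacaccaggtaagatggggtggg
B3gnt8 (chr1:90263137-90263436, plus strand): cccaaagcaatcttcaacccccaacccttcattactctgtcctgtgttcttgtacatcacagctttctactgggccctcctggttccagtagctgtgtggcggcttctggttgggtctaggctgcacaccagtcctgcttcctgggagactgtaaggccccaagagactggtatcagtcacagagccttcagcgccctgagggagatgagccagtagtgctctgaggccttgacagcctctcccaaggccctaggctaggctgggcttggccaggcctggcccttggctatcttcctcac
St3gal2 (chr19:55833106-55833405, plus strand): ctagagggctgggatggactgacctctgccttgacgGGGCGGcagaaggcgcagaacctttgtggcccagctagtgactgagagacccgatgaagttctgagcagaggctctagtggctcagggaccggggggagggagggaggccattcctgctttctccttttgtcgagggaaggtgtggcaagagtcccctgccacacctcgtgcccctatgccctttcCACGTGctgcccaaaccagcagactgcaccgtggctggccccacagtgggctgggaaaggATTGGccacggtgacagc
St3gal6 (chr11:55546538-55546837, plus strand): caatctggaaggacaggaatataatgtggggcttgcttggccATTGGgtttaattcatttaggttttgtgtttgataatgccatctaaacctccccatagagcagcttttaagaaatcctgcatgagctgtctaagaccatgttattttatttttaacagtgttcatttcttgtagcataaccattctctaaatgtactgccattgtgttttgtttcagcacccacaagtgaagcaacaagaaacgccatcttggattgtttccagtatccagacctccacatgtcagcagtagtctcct
B4galt1 (chr5:60778396-60778695, minus strand): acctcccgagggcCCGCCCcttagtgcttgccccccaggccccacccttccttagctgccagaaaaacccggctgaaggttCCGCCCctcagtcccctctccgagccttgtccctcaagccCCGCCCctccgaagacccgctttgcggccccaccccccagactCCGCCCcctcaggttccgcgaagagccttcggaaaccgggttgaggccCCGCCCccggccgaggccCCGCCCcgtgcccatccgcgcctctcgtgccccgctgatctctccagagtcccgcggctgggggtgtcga

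The GC content was 71.7% in the B4galt1 promoter, with 6 GC boxes, and 49.3% in B3gnt6, 57.7% in B3gnt8, 62.3% in St3gal2 and 40.0% in St3gal6. In the entries not shown it was 72, 49 and 43.7% for St3gal4 and 71 and 46% for St3gal5. C1galt1, which was not called, had 79.3% and also 6 GC boxes. A difference in promoters by direction of change was not tested. B3gnt6 and St3gal6 each held 1 CCAAT box, St3gal2 held 1 GC box, 1 CCAAT box and 1 E-box, and B3gnt8 held none of these letters. Over 33469 promoters of the same length a GC box was found in 33.1%, a CCAAT box in 37.5%, a TATA box in 14.2%, an E-box in 6.42%, an AP-1 site in 7.33% and the inverted repeat in 0.0269%. Over the 58 promoters of the 50 members with an entry these shares were 44.8, 27.6, 6.90, 10.3, 1.72 and 0%, and the median GC content was 57.3% against 51.7% in all. A match to these letters is a description of the sequence.

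**Figure D2:**
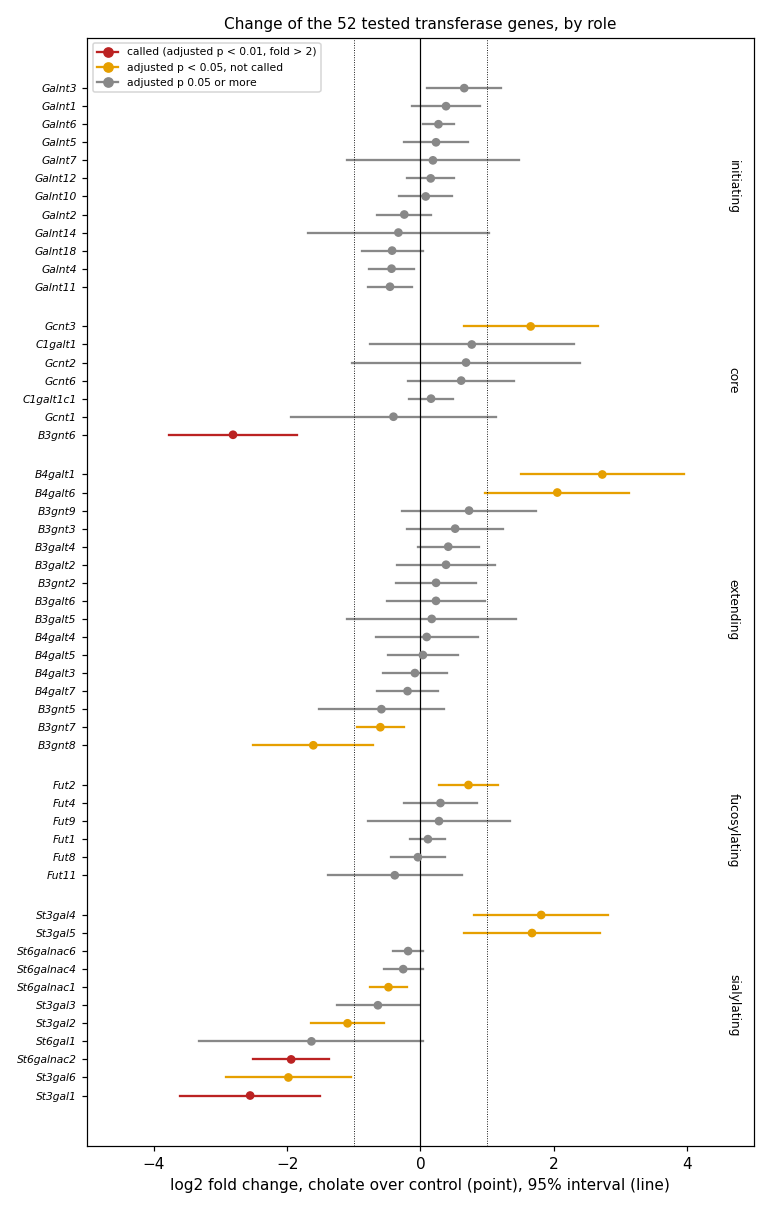
Log2 fold change of cholate over control (points) with 95% intervals (lines) for the 52 tested members, ordered by role, n = 5 rats per diet, with dotted lines at a fold of 2. The 3 called genes, B3gnt6, St3gal1 and St6galnac2, lie at -2.81, -2.56 and -1.94.

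Initiating enzymes were expressed as a broad set and none passed either threshold over all 10 libraries. Per kilobase of coding length, the level scale on which genes can be compared, Galnt18 led with a control mean of 165 CPM per kb, followed by Galnt6 at 121, Galnt4 at 76.3 and Galnt12 at 70.0. The level summed over the 16 Galnt genes was 684.4 ± 69.3 CPM per kb in controls and 698.5 ± 73.4 on cholate. The log2 changes of the 12 tested ran from -0.46 (Galnt11) to 0.66 (Galnt3), with a median of 0.12, and the smallest adjusted p was that of Galnt11. Among the 6 rats Galnt1 (0.57), Galnt3 (0.76), Galnt5 (0.40) and Galnt6 (0.39) were higher in the looser class. Galnt4 (-0.41), Galnt14 (-1.53) and Galnt18 were lower in it, and none of the Galnt genes was called. The looser class of that fit held 18.7% of all genes higher and 19.8% lower.

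Galnt18, a member of the Galnt family that is close to Galnt8 and Galnt9 in sequence, was held in a narrow range in controls, at 310.0, 297, 297, 300.5 and 304 CPM in rats 1, 2, 5, 6 and 9. On cholate it was 183, 134, 207, 337 and 263 CPM in rats 3, 4, 7, 8 and 11. Cholate rats 3, 4, 7 and 11 lay below every control and rat 8 above every control. The log2 change was -0.42 (SE 0.21, adjusted p = 0.205). Among the 6 rats, which leave out cholate rat 8 and were chosen after the values were seen, it was -0.76 (adjusted p = 0.0043). Its share of the summed Galnt level was 21.2 to 27.9% in controls, 9.31 to 15.3% in cholate rats 3, 4 and 7, and 30.0 and 22.7% in rats 8 and 11.

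Galnt6 was 214, 232, 240.1, 238 and 211 CPM in control rats 1, 2, 5, 6 and 9, and 279.8, 324, 273, 248 and 245 CPM in cholate rats 3, 4, 7, 8 and 11. The cholate rats all lay above the controls, and the log2 change was 0.27 (SE 0.11, adjusted p = 0.117). Galnt11 was the other initiating gene with no overlap, in the lower direction, at 19.8 CPM in controls and 14.4 on cholate (-0.46, adjusted p = 0.0672).

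Galnt12, an enzyme of the intestinal epithelium, was 116, 110.4, 115, 122 and 146 CPM in control rats 1, 2, 5, 6 and 9, and 108, 118, 115, 169.6 and 168 CPM in cholate rats 3, 4, 7, 8 and 11. The groups overlapped, with the highest values in cholate rats 8 and 11, and the log2 change was 0.16 with a 95% interval from -0.19 to 0.50. Galnt7, which acts on peptides that already carry a sugar, had the wide interval of -1.10 to 1.48.

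**Figure D3:**
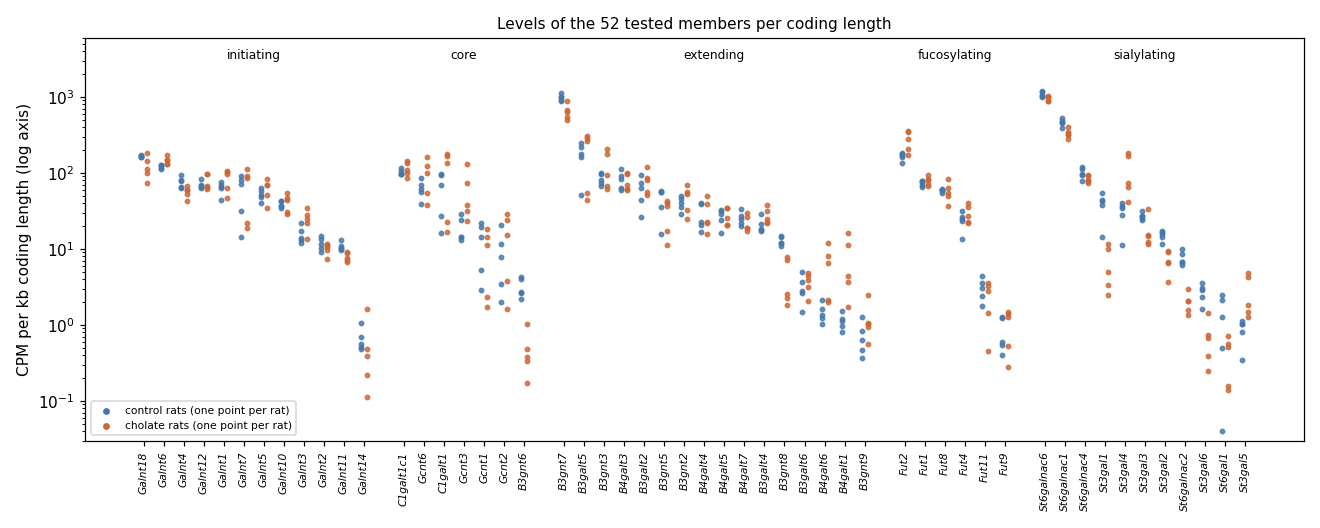
Level of each tested member in CPM per kb of coding length on a log axis, 1 point per rat, ordered by role and by control mean. St6galnac6 and B3gnt7 lie highest, with control means of 1088 and 983 CPM per kb, and B3gnt6 and St6galnac2 lie among the low members, at 3.15 and 7.65.

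Among core enzymes the sharpest drop was that of B3gnt6, the enzyme that makes core 3. This gene was a small part of the summed core level per kb, at 0.755 to 1.56% in controls and 0.0341 to 0.395% on cholate. B3gnt6 (Entrez 292325, rn6 chromosome 1, 163143027 to 163149496, minus strand) was 5.05, 4.67, 2.57, 3.09 and 3.16 CPM in control rats 1, 2, 5, 6 and 9. It was 0.443, 0.205, 0.402, 0.563 and 1.21 CPM in cholate rats 3, 4, 7, 8 and 11. No values overlapped, and the highest cholate value, in rat 11, was under the lowest control value, in rat 5. On the log2 scale the difference was -2.81 (SE 0.44, adjusted p = 0.00305), from 506 counts over the controls to 62 over the cholate rats. The call was lost without control rat 1 or 2 or cholate rat 7, with adjusted p from 0.0106 to 0.011, and against a fold of 2 (adjusted p = 0.0324), and among the 6 rats the change was -3.61 (adjusted p = 0.00039). Under a filter on a mean of 5 CPM the gene was not tested.

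Core 1 synthesis showed no called change. C1galt1, the galactosyltransferase, was 81.2, 115, 31.9, 109 and 19.3 CPM in control rats 1, 2, 5, 6 and 9, and 194, 208, 159, 19.5 and 26.6 CPM in cholate rats 3, 4, 7, 8 and 11. It was low in control rats 5 and 9 and cholate rats 8 and 11, the libraries that stand apart, and the log2 change over all rats was 0.77 (95% interval -0.76 to 2.30, adjusted p = 0.515). Among the 6 rats it was 0.91 (adjusted p = 0.00241), under the fold limit. Its longest annotated 3′ UTR is 4500 bases, the longest of all members.

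The chaperone C1galt1c1 was 102, 93.2, 91.0, 91.2 and 109 CPM in control rats 1, 2, 5, 6 and 9, and 80.5, 94.5, 105, 127 and 137 CPM in cholate rats 3, 4, 7, 8 and 11, a log2 change of 0.16 with a 95% interval from -0.17 to 0.49. The values of C1galt1c1 in control rats 5 and 9 and cholate rats 8 and 11 were not the low ones, unlike those of C1galt1. Its longest annotated 3′ UTR is 291 bases, and the part of 3′ UTR length in the values of either gene was not tested.

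Of the 4 tested branching enzymes 1 was in the looser class, Gcnt3. Gcnt3, which makes core 2 and core 4 branches in mucus-producing epithelium, was 18.8, 17.0, 18.9, 37.3 and 31.5 CPM in control rats 1, 2, 5, 6 and 9, and 170.3, 96.0, 42.0, 30.9 and 49.8 CPM in cholate rats 3, 4, 7, 8 and 11. Cholate rat 8 lay within the control range and the other 4 above it. Its log2 change came to 1.66 (SE 0.46, adjusted p = 0.036), under 0.05 in 5 of 10 leave-one-rat-out fits, and called by DESeq2 and the edgeR exact test. Without cholate rat 3 it was 1.15 (adjusted p = 0.0647). The coding part of Gcnt3 overlaps an exon of the antisense gene LOC108351740, and the sources used here do not say if reads were counted by strand.

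Gcnt6, which lies 32.3 kb from Gcnt2 on chromosome 17 and on the same strand, had the highest level of the Gcnt genes per kilobase, with a control mean of 62.4 CPM per kb. Its level was 54.8, 66.4, 59.4, 84.2 and 37.4 CPM in control rats 1, 2, 5, 6 and 9, and 156, 118, 97.1, 53.3 and 36.7 CPM in cholate rats 3, 4, 7, 8 and 11. The groups overlapped through cholate rats 8 and 11 (0.61, adjusted p = 0.299), and among the 6 rats the change was 0.88 (adjusted p = 0.0118). Gcnt1, which makes core 2, and Gcnt2, which makes branches on lactosamine chains, had log2 changes of -0.40 (95% interval -1.94 to 1.13) and 0.69 (-1.03 to 2.40).

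B3gnt7, which lengthens sulfated lactosamine chains, made up 58.6 to 69.8% of the summed level per kb of the extending enzymes in controls and 40.5 to 55.1% on cholate. It made up 82.1 to 87.4% of the summed B3gnt level per kb in controls and 68.2 to 83.6% on cholate. Its level was 1048, 1204, 1083, 1177 and 1354 CPM in control rats 1, 2, 5, 6 and 9, and 1068, 751, 601, 641 and 807 CPM in cholate rats 3, 4, 7, 8 and 11. Cholate rat 3 lay within the control range and the other 4 below it. The log2 change was -0.60 (SE 0.16, adjusted p = 0.0316), with an adjusted p under 0.05 in 1 of 10 leave-one-rat-out fits, and among the 6 rats it was -0.47 (adjusted p = 0.0785).

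B3gnt8, which initiates lactosamine chains on branched N-glycans together with B3gnt2, was 17.0, 14, 13.9, 12.9 and 17.5 CPM in control rats 1, 2, 5, 6 and 9. It was 2.95, 2.14, 2.68, 8.33 and 9.03 CPM in cholate rats 3, 4, 7, 8 and 11. The groups did not overlap, and cholate rats 8 and 11 lay between the other cholate rats and the controls. On the log2 scale the difference was -1.61 (SE 0.41, adjusted p = 0.0258), and -2.48 (adjusted p = 0.000129) among the 6 rats. B3gnt8 was called by DESeq2, limma-voom and the edgeR exact test, with 1 surrogate variable and without cholate rat 11 (-1.96). Its adjusted p was under 0.05 in 6 of 10 leave-one-rat-out fits and 0.0525 to 0.0638 without control rat 1 or 2 or cholate rat 3 or 7.

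B4galt1, the main galactosyltransferase of lactosamine in many tissues, and B4galt6, which makes lactosylceramide, were low in controls and higher on cholate. B4galt1 was 0.982, 1.42, 1.16, 1.83 and 1.36 CPM in control rats 1, 2, 5, 6 and 9, and 13.5, 19.5, 5.22, 2.07 and 4.40 CPM in cholate rats 3, 4, 7, 8 and 11. No values overlapped, although cholate rat 8 was close to control rat 6. Its log2 change came to 2.73 (SE 0.55) and the adjusted p of 0.01 missed the call by its last digits. B4galt1 was called in 8 of 22 alternatives. These were RLE scaling, no robust estimation, no filter on low counts, DESeq2, the exact test, 1 surrogate variable, the fit without cholate rat 8, and the 6 rats (3.19, adjusted p = 0.00321). It was not called in the other fits without 1 rat, by limma-voom or against a fold of 2. Over the alternatives its adjusted p reached 0.109.

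B4galt6 was 1.40, 1.88, 1.57, 2.46 and 1.2 CPM in control rats 1, 2, 5, 6 and 9, and 13.8, 7.54, 9.32, 2.44 and 2.28 CPM in cholate rats 3, 4, 7, 8 and 11. The values of cholate rats 8 and 11 lay within the control range, and the longest annotated 3′ UTR of B4galt6 is 3735 bases. The log2 change was 2.06 (SE 0.49, adjusted p = 0.02), and 2.43 (adjusted p = 0.000717) among the 6 rats. Its adjusted p was under 0.05 in 7 of 10 leave-one-rat-out fits and 0.0503 to 0.059 without control rat 1, 2 or 5. B4galt1 and B4galt6 made up a small part of the summed B4galt level, in which B4galt3 held 38.9 to 59.9% in controls and 32.7 to 58.0% on cholate. The remaining 4 tested B4galt genes had log2 changes between -0.19 (B4galt7, of the proteoglycan linker) and 0.09 (B4galt4).

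The B3galt genes add galactose in a beta-1,3 linkage. B3galt5 makes type 1 chains in the gut, while B3galt4 acts on gangliosides and B3galt6 on the proteoglycan linker. B3galt5 was 167, 204, 150.1, 227 and 47.0 CPM in control rats 1, 2, 5, 6 and 9, and 288, 244, 271, 40.6 and 51.2 CPM in cholate rats 3, 4, 7, 8 and 11. It was lowest in control rat 9 and cholate rats 8 and 11. On the log2 scale the difference was 0.17 (95% interval -1.10 to 1.44), its sign changed in 5 alternatives, and among the 6 rats it was 0.45 (adjusted p = 0.017).

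B3gnt3, an enzyme that extends core 1, was 84.5, 77.1, 109, 90.9 and 115 CPM in control rats 1, 2, 5, 6 and 9, and 69.7, 106, 76.7, 233 and 199.5 CPM in cholate rats 3, 4, 7, 8 and 11. The high values were those of cholate rats 8 and 11, and the log2 change was 0.52 (adjusted p = 0.331) over all rats and 0.03 among the 6 rats. The other 6 tested genes of these families had log2 changes from -0.59 (B3gnt5, of glycolipid chains) to 0.73 (B3gnt9), each with an adjusted p over 0.05 over all rats. Among the 6 rats the change was -0.49 for B3gnt5 (adjusted p = 0.00451), 0.40 for B3galt4 (adjusted p = 0.0173) and 0.42 for B3gnt2 (adjusted p = 0.0335). B3galt2, B3galt6 and B3gnt9 stayed over 0.05 there. Summed over the 19 extending genes the level was 1585 ± 86.2 CPM per kb in controls and 1324 ± 221 on cholate, given without a test.

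**Figure D4:**
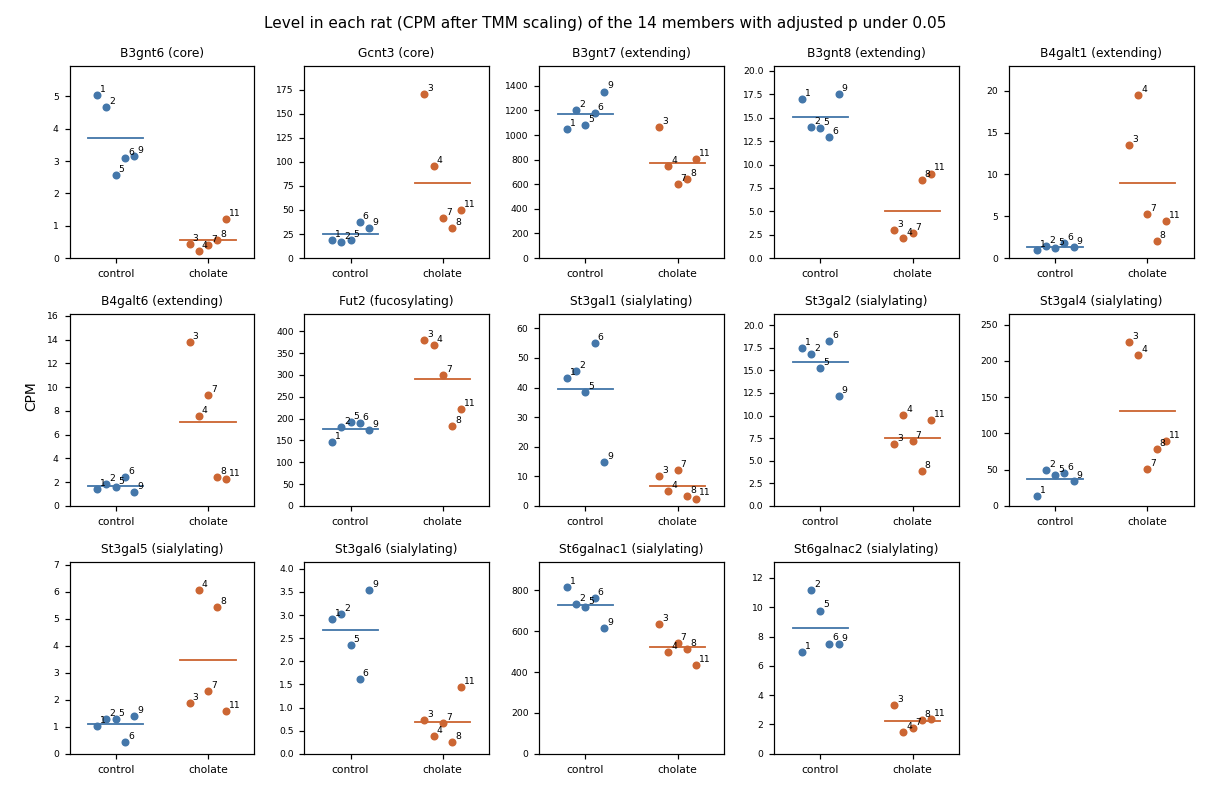
CPM after TMM scaling in each rat (points with rat numbers) and the mean of 5 rats (line) for the 14 members with an adjusted p under 0.05, on axes that start at 0. Cholate rats 8 and 11 lie nearer to the controls than rats 3, 4 and 7 for B3gnt8, B4galt6 and Fut2.

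Fucosylation was led by Fut2, the alpha-1,2 fucosyltransferase that makes H antigen on gut mucins. Fut2 (Entrez 58924, rn6 chromosome 1, 101631633 to 101651668, minus strand) was 145, 181, 192, 189 and 174 CPM in control rats 1, 2, 5, 6 and 9. It was 380.1, 368, 301, 183 and 222 CPM in cholate rats 3, 4, 7, 8 and 11. Rat 8 lay within the control range and the other 4 cholate rats above it. Its log2 change came to 0.72 (SE 0.20, adjusted p = 0.0365), with an adjusted p under 0.05 in 2 of 10 leave-one-rat-out fits, and among the 6 rats Fut2 was called at 1.06 (adjusted p = 0.000729). Its share of the summed Fut level per kb was 44.5 to 54.2% in controls, 61.4 to 72.5% in cholate rats 3, 4 and 7, and 50.5 and 51.0% in rats 8 and 11.

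Fut1, the paralog of Fut2 that lies 29.2 kb away on chromosome 1 on the other strand, did not share this pattern of values. It was 88.1, 87.9, 79.2, 85.2 and 73.0 CPM in control rats 1, 2, 5, 6 and 9, and 75.3, 81.7, 93.7, 90.6 and 106 CPM in cholate rats 3, 4, 7, 8 and 11, a log2 change of 0.11 with a 95% interval from -0.15 to 0.38. The difference between the changes of Fut1 and Fut2 was not tested.

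Fut8, which adds the core fucose of N-glycans, was 109, 104, 97.2, 103 and 105 CPM in control rats 1, 2, 5, 6 and 9, and 64.7, 87.7, 95.5, 112 and 145 CPM in cholate rats 3, 4, 7, 8 and 11. The cholate values spread on both sides of the controls, with a log2 change of -0.04 (95% interval -0.44 to 0.37). Fut4, Fut9 and Fut11 had log2 changes of 0.30, 0.28 and -0.38, with adjusted p of 0.467 or more. The summed level of the 8 Fut genes was 326 ± 19.8 CPM per kb in controls and 443 ± 69.3 on cholate, given without a test.

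The sialyltransferases held the most members of the looser class, 2 higher and 5 lower of 11 tested. St3gal1 and St3gal2, which act on core 1 chains, and St3gal6 were lower, while St3gal4, which caps lactosamine, and St3gal5, which makes the ganglioside GM3, were higher. In each of these 5 genes the cholate values lay wholly on 1 side of the controls, as in 13.1% of all genes tested. The 5 were picked by their adjusted p in the same values, so this is description only.

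St3gal1 (Entrez 362924, rn6 chromosome 7, 107895045 to 107963158, minus strand) was 43.1, 45.5, 38.4, 55.2 and 14.7 CPM in control rats 1, 2, 5, 6 and 9. It was 10.2, 5.07, 12.0, 3.44 and 2.51 CPM in cholate rats 3, 4, 7, 8 and 11. Control rat 9 came closest to the cholate rats, and the lowest cholate values were those of rats 8 and 11. The longest annotated 3′ UTR of St3gal1 is 3716 bases, and genes with a long 3′ UTR were low in these libraries. The part of this in the change was not tested. The log2 change was -2.56 (SE 0.48, adjusted p = 0.00695). Among 10 fits with 1 rat left out only those without control rat 9 or cholate rat 7 called it, and the other 8 gave adjusted p from 0.0105 to 0.022. It was also not called against a fold of 2 (adjusted p = 0.0818), and it was called among the 6 rats (-2.38, adjusted p = 0.00138).

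St3gal2 was 17.4, 16.8, 15.3, 18.2 and 12.1 CPM in control rats 1, 2, 5, 6 and 9, and 6.83, 10.0, 7.15, 3.88 and 9.49 CPM in cholate rats 3, 4, 7, 8 and 11 (-1.09, SE 0.25, adjusted p = 0.0152). St3gal6 was 2.91, 3.03, 2.35, 1.61 and 3.54 CPM in control rats 1, 2, 5, 6 and 9, and 0.738, 0.390, 0.669, 0.250 and 1.44 CPM in cholate rats 3, 4, 7, 8 and 11 (-1.98, SE 0.42, adjusted p = 0.0125). For both, the adjusted p stayed under 0.05 in 10 of 10 leave-one-rat-out fits, and DESeq2, limma-voom and the exact test called them. The longest annotated 3′ UTR of St3gal2 is 3342 bases.

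St3gal4 was 13.7, 49.3, 42.7, 45.5 and 34.5 CPM in control rats 1, 2, 5, 6 and 9, and 226, 208, 50.9, 79.1 and 89.2 CPM in cholate rats 3, 4, 7, 8 and 11. Rats 3 and 4 were far above the rest, and cholate rat 7 only just above control rat 2. On the log2 scale the difference was 1.81 (SE 0.46, adjusted p = 0.0251), and 2.19 (adjusted p = 0.0716) among the 6 rats. St3gal5 was 1.02, 1.30, 1.31, 0.438 and 1.42 CPM in control rats 1, 2, 5, 6 and 9, and 1.88, 6.06, 2.33, 5.45 and 1.59 CPM in cholate rats 3, 4, 7, 8 and 11. Its high values were those of cholate rats 4 and 8, no values overlapped, and the log2 change was 1.68 (SE 0.46, adjusted p = 0.0362). St3gal4 and St3gal5 had an adjusted p under 0.05 in 6 and 4 of 10 leave-one-rat-out fits, and DESeq2 and the exact test called both. St3gal3, an enzyme that caps lactosamine, was 27.3 to 35.4 CPM in controls, 12.9 to 17.2 CPM in cholate rats 3, 4, 7 and 11, and 37.7 CPM in cholate rat 8. It was not in the looser class (-0.64, adjusted p = 0.155). Without cholate rat 8, its highest cholate value, it was called lower (-1.004, adjusted p = 0.00261). Among the 6 rats, which also leave out cholate rat 8, the change was -0.99 (adjusted p = 0.000984).

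Within the St3gal family the shares of St3gal4 and St3gal1 differed between the diets in opposite directions. Of the summed St3gal level per kb in control rats 1, 2, 5, 6 and 9, St3gal4 made up 11.4, 30.5, 30.0, 27.0 and 31.2%. In cholate rats 3, 4, 7, 8 and 11 it made up 85.9, 83.1, 55.3, 58.8 and 71.1%. St3gal1 made up 43.0, 33.8, 32.4, 39.2 and 15.9% in the same controls and 4.64, 2.44, 15.6, 3.07 and 2.40% in the same cholate rats. The St3gal4 shares did not overlap, and the St3gal1 shares of control rat 9 and cholate rat 7 were nearly equal. Shares in 1 family are tied to each other, and these are given as a description.

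**Figure D5:**
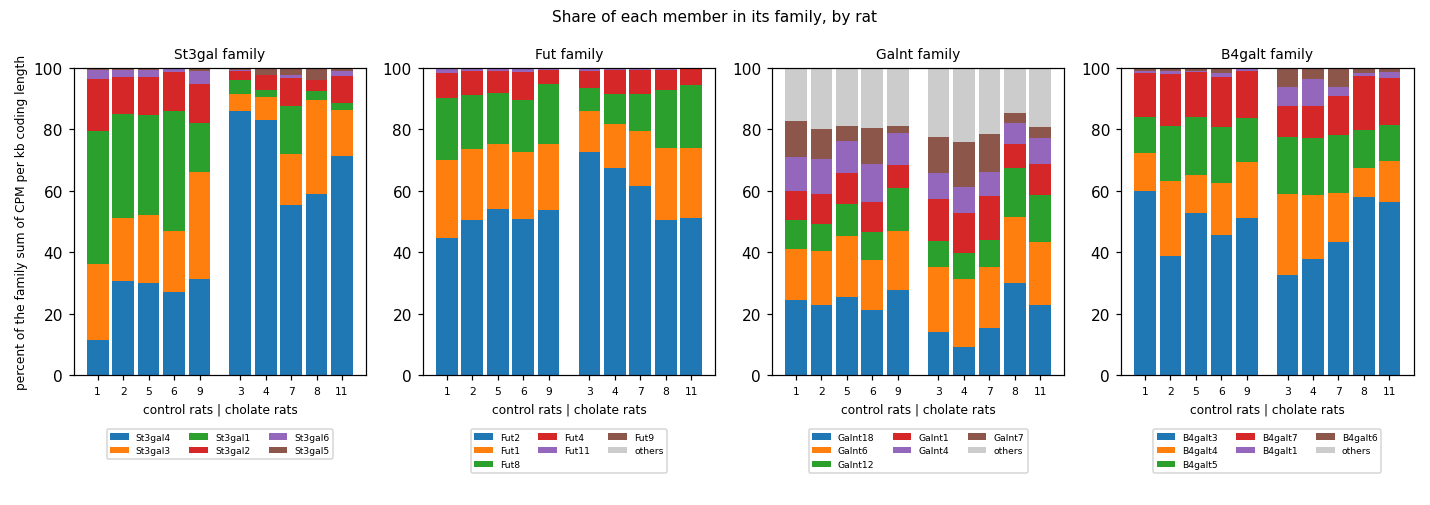
Share of each member, in percent of its family's summed CPM per kb of coding length, in each rat (bars, control rats left and cholate rats right) for the St3gal, Fut, Galnt and B4galt families. St3gal4 holds 11.4 to 31.2% in controls and 55.3 to 85.9% on cholate.

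St6galnac2 had the smallest adjusted p of all members. It was a small part of the summed sialylating level per kb, at 0.358 to 0.581% in controls and 0.0893 to 0.171% on cholate. St6galnac2 (Entrez 303692, rn6 chromosome 10, 105650866 to 105668579, minus strand) was 6.94, 11.2, 9.77, 7.52 and 7.51 CPM in control rats 1, 2, 5, 6 and 9, and 3.32, 1.5, 1.74, 2.32 and 2.35 CPM in cholate rats 3, 4, 7, 8 and 11. Every cholate rat lay under every control, cholate rats 8 and 11 included. Its log2 change came to -1.94 (SE 0.26, adjusted p = 0.00156). It was called in 10 of 10 leave-one-rat-out fits and among the 6 rats (-1.96, adjusted p = 0.00277), and lost only against a fold of 2 (adjusted p = 0.0366) among the alternatives run.

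St6galnac1, which makes the sialyl-Tn structure and is prominent in goblet cells, lies 44.7 kb from St6galnac2 on the same strand. It was 819, 734, 717, 762 and 617 CPM in control rats 1, 2, 5, 6 and 9, and 634, 497, 542, 511 and 434 CPM in cholate rats 3, 4, 7, 8 and 11. Only cholate rat 3 lay above the lowest control, rat 9. The log2 change was -0.48 (SE 0.12, adjusted p = 0.0282), with an adjusted p under 0.05 in 2 of 10 leave-one-rat-out fits. Among the 6 rats it was -0.44 (adjusted p = 0.012).

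St6galnac6, which acts on gangliosides and type 1 chains, had the highest level of all members per kilobase. It was 1035, 1007, 1192, 1061 and 1228 CPM in control rats 1, 2, 5, 6 and 9, and 1051, 895, 894, 1016 and 1005 CPM in cholate rats 3, 4, 7, 8 and 11. The groups overlapped, with a log2 change of -0.18 (95% interval -0.41 to 0.04, adjusted p = 0.272). St6galnac4, which adds a further sialic acid to sialylated core 1 and ends 0.455 kb before St6galnac6 starts on the same strand of chromosome 3, was 86.1, 121, 129, 105 and 103 CPM in control rats 1, 2, 5, 6 and 9, and 80.7, 99.3, 102, 85.8 and 87.2 CPM in cholate rats 3, 4, 7, 8 and 11. Its values overlapped too (-0.26, adjusted p = 0.224). St6gal1, the sialyltransferase of N-glycans, was under 4 CPM in every rat and had a log2 change of -1.64 (adjusted p = 0.184). Among the 6 rats the change of St6gal1 was -2.09 (adjusted p = 0.0107). The level summed over the 14 sialylating genes was 1779 ± 63.9 CPM per kb in controls and 1519.6 ± 128 on cholate, given without a test.

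The mucins that carry these glycans were measured in the same libraries. Of 16 mucins listed 13 were found and 7 tested. None was called by the quasi-likelihood test, and 1, Muc5b, had an adjusted p under 0.05 (-0.93, adjusted p = 0.0458, 4.12 CPM in controls and 2.19 on cholate). Muc2, the gel-forming mucin of colonic goblet cells, had a log2 change of 0.38 (95% interval -0.70 to 1.46), and the membrane mucins Muc3, Muc13, Muc4 and Muc1 had changes of 0.01, 0.01, 0.07 and -1.05 with adjusted p of 0.248 or more. LOC100912943, named Muc3a in a newer RefSeq table, had a change of -0.70 (adjusted p = 0.217). Muc6, Muc15 and Muc19 had no reads.

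The supply of donor sugars was followed in 24 tested genes, which had a median log2 change of 0.12. Of these 1 was called higher, 3 had an adjusted p under 0.05, all higher, and 0 were lower in either class. Galk1, the kinase that brings galactose into metabolism, was in the looser class only (1.48, adjusted p = 0.0118), and so was Ugp2, which makes UDP-glucose (0.44, adjusted p = 0.0466). Other capping, branching and sulfating enzymes had 17 of 31 genes tested and 0 in either class, with the smallest adjusted p for the blood group enzyme Abo (0.66, adjusted p = 0.0681). Of 9 tested fucosidases, sialidases and related glycosidases 0 were called and 1 had an adjusted p under 0.05, lower on cholate, with a median log2 change of -0.47. Of 10 tested enzymes of N-glycan branching 0 were in either class, the smallest adjusted p being that of Man2a2 (-0.59, adjusted p = 0.115).

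Cell type markers were measured in the same libraries, since a gene's level in bulk cells moves with the cells sampled. Their part in the results on the transferases was not tested. Over all genes tested 1.1% were called higher and 2.12% lower. Of 16 colonocyte markers 4 were called higher (Car4, Car1, Krt20 and Prap1) and 0 lower. In the looser class 7 were higher and 1 lower, and 3 of the 16 had a negative change, the lowest -1.29. The summed level of the 16 was 5051 to 6879 CPM in controls and 9527 to 15179 on cholate. Of 19 goblet cell markers Spink4 was called higher (4.76) and Retnlb lower (-5.61), and the sum was 8355 to 25626 CPM in controls and 7900 to 27505 on cholate. Of 13 crypt and proliferation markers Olfm4, Tk1 and Ccnb1 were called higher and Rnf43 lower, with sums of 687 to 845 and 828.8 to 1210 CPM. Of 9 enteroendocrine markers Gcg, Pyy, Cck and Neurog3 were called higher, with sums of 226 to 298 and 309.9 to 563 CPM. Of 7 tested tuft cell markers 0 were called, the smallest adjusted p being that of Trpm5 (-0.83, adjusted p = 0.0768), with sums of 127 to 268 and 63.1 to 154 CPM.

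For markers of cells outside the epithelium the summed levels of the diets overlapped in every list. Summed levels in controls and on cholate were 23.8 to 38.2 and 28.2 to 33.6 CPM for T and NK cells, 1.34 to 5.50 and 1.63 to 5.75 for B and plasma cells, and 221 to 291 and 235 to 293 for macrophages and dendritic cells. They were 29.5 to 50.5 and 32.2 to 49.9 CPM for granulocytes and mast cells, and 6.78 to 8.65 and 4.44 to 8.95 for fibroblasts. Smooth muscle markers summed to 118 to 209 and 92.2 to 229.8 CPM, endothelial and blood markers to 20.6 to 47.9 and 10.5 to 24.1, and enteric neuron and glia markers to 3.84 to 8.98 and 2.75 to 4.10. Called genes among them were Des of muscle (-3.10), Vwf of endothelium (-1.69) and Ret of neurons (-1.88), and the smallest adjusted p in the other lists were those of Gzma (-1.92, adjusted p = 0.0456), Jchain (-0.19, adjusted p = 0.851), Mrc1 (0.93, adjusted p = 0.102), S100a9 (0.65, adjusted p = 0.184) and Col1a1 (-2.56, adjusted p = 0.01). Genes with no reads included Derl3, Mpo, Col1a2 and Lmod1.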

How the data were processed

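Poly(A) RNA of 10 libraries was sequenced from strand-specific cDNA, per the labels' protocols. Per the submitters' processing notes, bcl2fastq 1.8.4 made the reads and BWA 0.7.12-r1039 placed them on rn6, with its MEM algorithm per the labels, which is not built for spliced reads. The sources used here do not say how reads were counted, or if by strand. The authors deposited raw counts per gene and a normalized signal, CPM after TMM scaling with edgeR 3.16.2, per the file headers and the series' design text. The deposited gene lengths, in bases, equalled the union of coding bases in 23422 of 23422 rows, so levels per kilobase are per coding length.

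The counts of all 23422 genes were filtered with filterByExpr, scaled with TMM and tested with the edgeR 4.0.16 quasi-likelihood test with robust estimation (R 4.3.3) over 12385 genes, with Benjamini-Hochberg adjustment. The call limits (adjusted p under 0.01, fold over 2) are those of the series' design text. A fit on simulated counts called 71 of 100 genes with a log2 change of 1.5, 93 of 100 with 2.5 and 2 of 12117 unchanged ones, of 12317 genes fitted. The changed genes had a mean of at least 5 CPM, so these shares do not cover low members such as B3gnt6. Counts were drawn independently, without the axis on which the libraries differed. The deposited signal served only as a check: the median ratio of own CPM to it was 0.980 to 1.02 per library. Alternatives used limma 3.58.1, DESeq2 1.42.0 and sva 3.50.0, other scalings and filters, and fits without 1 rat. Members with per-rat values were those called, those with an adjusted p under 0.05 and the 3 highest per role by CPM per kb over all libraries. Of each other list up to 4 called genes, or the gene with the smallest adjusted p, were named. Of 239 list genes 235 were found. Some list genes are not reported here. Galk1, Ugp2, Gcnt1, Gcnt2, St3gal3 and St6gal1 lay outside this rule and were named with their values in view. So were the other Galnt, B3gnt, B3galt, Fut and B4galt genes with values. The members and lists were chosen with earlier results of these data known.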

Additional observations from a re-analysis of the deposited data

Results flagged for a closer look

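Muc1, a membrane mucin, was 76.1 CPM in cholate rat 11, far above the other cholate rats: the gap to the nearest of them was 0.743 of the whole range of the 5 rats, above Dixon's critical value of 0.71. Of 66 groups of 5 values looked at this was the only 1, and chance gives about 1 in 20.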

How the results depend on the processing

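The counts of called members moved with the method. Shares over all genes are given here only for the quasi-likelihood test over all rats and among the 6 rats. Against 0 called higher and 3 lower, DESeq2 and the edgeR exact test each gave 5 higher and 6 lower, 1 surrogate variable 3 and 6, and the adjusted p under 0.05 with no fold limit 6 and 8. RLE scaling, no robust estimation and no filter on low counts each gave 1 higher, limma-voom gave 6 lower, and a test against a fold of 2 gave 0 lower. Leaving out 1 rat gave 0 to 2 higher (2 without cholate rat 8) and 1 to 4 lower (1 without control rat 1 or 2). Members with an adjusted p under 0.05 were 6 higher and 8 lower. They were 0 and 2 against a fold of 2, 12 and 15 with 1 surrogate variable, and 1 to 6 and 5 to 8 without 1 rat (1 higher without control rat 1 or 5, 2 without control rat 2 or cholate rat 4, 3 without cholate rat 3, 5 lower without control rat 1 or 2 or cholate rat 7). Among the 6 rats, chosen after seeing the data, 3 were called higher and 6 lower, and 14 and 13 had an adjusted p under 0.05. The cause was not tested.

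Of the values of 26 named members under the alternatives, 505 kept direction and side of the call, 39 passed it, 14 lost it and 10 changed sign. The sign changed among the 6 rats for Galnt12 (-0.0020), C1galt1c1 (-0.0017) and Fut1 (-0.027). B3galt5 was -0.023 with limma-voom and -0.054 with 1 surrogate variable, and -0.064 to 0.45 over the fits without 1 rat (-0.043 without control rat 9, -0.064 and -0.026 without cholate rats 3 and 7). Fut8 was -0.21 to 0.088 over these fits (0.088 and 0.011 without cholate rats 3 and 4). B3gnt6, St3gal6, B4galt6 and St3gal5 fell under the filter of a mean of 5 CPM. No paired analysis was possible because the diets hold different rats with different numbers. Depth limits the low members: 3 counts were 0.0616 to 0.228 CPM.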
